A study of Homo sapiens with 6 samples.

Results

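Nucleoredoxin (NXN), 3 Dishevelled proteins (DVL1, DVL2 and DVL3), the ubiquitin ligase adaptor KLHL12, flightless-1 (FLII) and the adaptor MYD88 were followed in Hep-3B cells, a human hepatocellular carcinoma line. The 7 genes are NXN and 6 proteins that have been reported to bind it or to form complexes around it, and they were taken by name and not by a threshold on any measured value. All 7 were listed and all passed the filter on low counts, out of 23406 features in the tables and 14071 tested. Hep-3B cells, labelled wild type, had been transduced with lentivirus that carried shControl, the control hairpin, or shNXN, the hairpin against NXN, and both groups went through 1 week of puromycin selection. Total RNA was taken on days 7, 9 and 11, with 1 library per group and day, so that each group had 3 libraries. The labels count these days from transduction in one place and from the end of selection in another, and which shRNA sequence was used was not given in the sources used here. Replicates 1, 2 and 3 are days 7, 9 and 11, and nothing says that they came from separate cultures, so the p-values measure the spread between these libraries only.

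NXN is an oxidoreductase of the thioredoxin family. It binds Dishevelled, the cytoplasmic protein that relays the signal of Wnt receptors to beta-catenin, and holds part of it inactive. KLHL12 hands Dishevelled to the CUL3 ubiquitin ligase for degradation, and NXN is known to shield Dishevelled from it. FLII is an actin-binding protein of the gelsolin family, and MYD88 is the adaptor through which Toll-like receptors and interleukin-1 receptors reach NF-kappaB. Both have been reported to bind NXN or to form complexes around it. The measurements here are of RNA and carry no information on binding or on protein amount.

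The depth was 15349382 to 16332589 estimated counts. Of 8 hepatocyte and hepatocellular carcinoma markers, all 8 were detected, with a summed level between 12665 and 23267 CPM (counts relative to the TMM-scaled library size) in shControl and between 6397 and 14742 CPM in shNXN. The 3 epithelial markers KRT8, KRT18 and EPCAM summed to between 2598 and 6658 CPM in shControl and between 3348 and 5872 CPM in shNXN. Fibroblast markers stayed at or below 8.76 CPM in sum and endothelial markers at or below 0.0613 CPM. The leukocyte list summed to between 62.0 and 77.4 CPM in shControl and between 91.2 and 106 CPM in shNXN, with CD3E at 0 in every library. The part of these differences in the results below was not tested. In bulk RNA, fewer cells that express a gene and less of its RNA per cell cannot be told apart.

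NXN lies on chromosome 17 from 799313 to 979770 on the minus strand (GRCh38, GENCODE 29), with DVL2 from 7225341 to 7234545 and FLII from 18244836 to 18258916 on the same strand of that chromosome. DVL1 (1335276 to 1349350) and KLHL12 (202891100 to 202928636) lie on the minus strand of chromosome 1. MYD88 (38138478 to 38143022) and DVL3 (184155311 to 184173614) lie on the plus strand of chromosome 3. All are protein-coding genes. The longest annotated transcript had a GC content of 67.2% for DVL1, 60.3% for DVL2, 59.9% for FLII and NXN, 56.8% for DVL3, 51.9% for MYD88 and 46.4% for KLHL12, against a median of 48.4% over the tested features with an annotated transcript.

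DVL1, DVL2 and FLII are shown with the 250 bases before their RefSeq starts (GRCh38.p14) because these 3 genes moved together between the groups, and KLHL12 is shown beside them because it did not. Capitals mark each occurrence of the GC box, GGGCGG or its reverse complement CCGCCC, counted on both strands with overlapping occurrences allowed, and each sequence reads 5′ to 3′ on the strand of the gene.
DVL1, chr1:1349419-1349668, minus strand: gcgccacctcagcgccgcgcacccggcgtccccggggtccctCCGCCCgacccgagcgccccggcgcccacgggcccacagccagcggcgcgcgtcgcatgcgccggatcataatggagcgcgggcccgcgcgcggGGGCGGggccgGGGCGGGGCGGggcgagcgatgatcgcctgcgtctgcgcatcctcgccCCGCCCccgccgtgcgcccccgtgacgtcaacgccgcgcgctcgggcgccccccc
DVL2, chr17:7234518-7234767, minus strand: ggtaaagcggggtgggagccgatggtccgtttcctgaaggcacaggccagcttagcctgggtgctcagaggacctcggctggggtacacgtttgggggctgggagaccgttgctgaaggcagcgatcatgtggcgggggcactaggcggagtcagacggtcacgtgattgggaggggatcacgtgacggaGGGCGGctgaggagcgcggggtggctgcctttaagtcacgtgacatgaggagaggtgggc
FLII, chr17:18258739-18258988, minus strand: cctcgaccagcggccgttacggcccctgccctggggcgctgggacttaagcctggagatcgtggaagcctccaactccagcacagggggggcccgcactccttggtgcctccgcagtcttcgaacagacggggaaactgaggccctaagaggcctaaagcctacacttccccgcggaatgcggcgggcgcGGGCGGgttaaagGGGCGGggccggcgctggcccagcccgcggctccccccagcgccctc
KLHL12, chr1:202928600-202928849, minus strand: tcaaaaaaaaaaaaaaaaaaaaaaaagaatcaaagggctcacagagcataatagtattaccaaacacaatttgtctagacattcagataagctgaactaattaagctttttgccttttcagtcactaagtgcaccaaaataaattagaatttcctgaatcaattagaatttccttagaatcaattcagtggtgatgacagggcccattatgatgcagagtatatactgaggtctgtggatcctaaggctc
The window of DVL1 held 5 GC boxes, that of FLII held 2, that of DVL2 held 1 and that of KLHL12 held 0, and 42.6% of the 35116 windows in the RefSeq table held at least 1. The windows of DVL3 and MYD88 held 3 and 4. NXN has a pair of starts in the table, with 6 GC boxes before the one and 0 before the other. The GC content of the KLHL12 window was 33.2%, lower than in all but 3.61% of the windows, and that of the DVL1 window was 83.2%. It was 64.4% for both DVL2 and MYD88, 70.8% for FLII and 77.6% for DVL3. The windows before the NXN starts were at 82.8% and 48.4%, and the median over all windows was 58%. A match of these letters is a description of the sequence and not a site of binding.

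NXN was downregulated in shNXN cells to 28.1% of the shControl mean. The shControl libraries of days 7, 9 and 11 gave 181, 138 and 143 CPM, and the shNXN libraries gave 42.7, 47.5 and 39.5 CPM. Every shNXN library lay far below every shControl library, and the 3 shNXN values were close to each other. The group means were 154 ± 23.4 and 43.2 ± 4.03 CPM (SD, n = 3), and the log2 fold change was -1.83 with a standard error of 0.16 and a 95% interval from -2.21 to -1.45 (edgeR's quasi-likelihood test, adjusted p = 0.0378). Over all tested features 3.39% had an adjusted p under 0.05, and NXN had the 2nd smallest p of 14071. The two-sided exact permutation test of NXN gave p = 0.1, the smallest value that 20 assignments of 3 against 3 libraries allow. The call depended on the libraries used, since it was lost without the shControl library of day 7 (adjusted p = 0.131) or day 11 (0.0633), or without the shNXN library of day 7 (0.225) or day 9 (0.162), while the log2 fold change in those fits lay between -1.90 and -1.67. Each of those fits called 0 of 14326 to 14349 tested features, so the loss was not particular to NXN.

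Within a day, NXN in shNXN was 23.6% (day 7), 34.5% (day 9) and 27.6% (day 11) of its shControl level. The knockdown was thus present on each day, and the day 9 pair, which had the lowest shControl and the highest shNXN value, was the least far apart. These within-day values rest on 1 library per group and have no test. NXN was the only one of the 7 genes whose estimated counts were not whole numbers, from 613.09 to 774.71 in shNXN, as arises when reads are shared out among features. The annotated genes that overlap NXN, antisense RNAs and a pseudogene on the opposite strand, were not among the tested features. The nearest tested genes on either side, MRM3 and TIMM22, had log2 fold changes of 0.32 and 0.19 with adjusted p values from edgeR of 0.223 and 0.446.

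**Figure D1:**
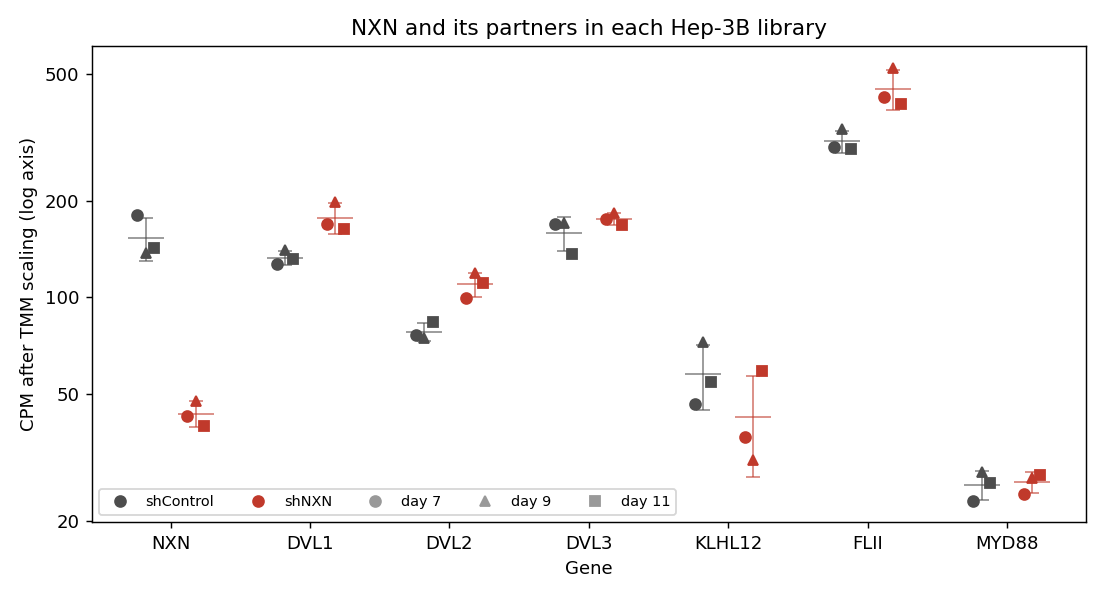
CPM after TMM scaling of the 7 genes on a log axis, for shControl (grey) and shNXN (red), with 1 point per library, day by marker shape, and the mean ± SD of 3 libraries. NXN is lower, and DVL1, DVL2 and FLII are higher, in each shNXN library than in any shControl library, while DVL3, KLHL12 and MYD88 overlap.

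Among the partners, DVL1, DVL2 and FLII were higher in every shNXN library than in any shControl library. None of the 3 passed the test without the day block, and all 3 passed it with the day entered as a replicate block. Counting NXN, 4 of the 7 genes had groups that did not overlap, against 40.6% of all tested features, and 3 of the 7 had shNXN above shControl, against 19.0%. With the block, 4 of the 7 passed, against 23.3% of all features, and 3 of these were higher, against 6.28%. With the block and the correction for transcript GC content described below, 1 of the 7 passed, NXN, and 130 of 14071 over all features. In that fit DVL1 was at -0.028, DVL2 at 0.13 and FLII at 0.18 (adjusted p = 0.937, 0.568 and 0.322, edgeR).

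DVL1, one of the 3 Dishevelled paralogs, gave 127, 141 and 132 CPM in shControl and 170, 199 and 163 CPM in shNXN on days 7, 9 and 11. The lowest shNXN value stood above the highest shControl value, and day 9 was the highest in both groups. The log2 fold change was 0.41 with a standard error of 0.13 (95% interval 0.10 to 0.72, adjusted p = 0.0916 from edgeR), and with the replicate block the adjusted p from edgeR was 0.0428. On the chromosome DVL1 overlaps the end of TAS1R3 on the other strand, which was near 1 CPM in both groups (1.22 ± 0.42 and 1.08 ± 0.34), and the strandedness of the counting was not given in the sources used here.

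DVL2, the second paralog, gave 76.1, 74.4 and 84.0 CPM in shControl and 99.7, 119 and 111 CPM in shNXN. The groups were again apart, and the day 9 pair had the widest gap, with shNXN at 160% of shControl against 131% on day 7 and 132% on day 11. The log2 fold change was 0.49 with a standard error of 0.13 (95% interval 0.18 to 0.81, adjusted p = 0.0735 from edgeR, 0.0399 with the replicate block). The gene for the mitochondrial fatty acid oxidation enzyme ACADVL ends 68 bases away on the other strand, and its log2 fold change was 0.38 (adjusted p = 0.0995, edgeR). PHF23, on the other side, was at 0.41 (adjusted p = 0.328, edgeR).

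DVL3 gave 170, 171 and 137 CPM in shControl and 176, 184 and 168 CPM in shNXN, so that the groups overlapped. Its log2 fold change was 0.15 with a 95% interval from -0.18 to 0.47 (adjusted p = 0.467 from edgeR), an interval that holds the value estimated for DVL1. On the FPKM scale (fragments relative to both transcript length and library total) the DVL3 groups did not overlap, with 37.3 to 43.1 in shControl and 44.9 to 51.4 in shNXN. Over the 13804 features tested on that scale the median log2 fold change was 0.14, against 0.03 for the counts. DVL3 was at 0.25 there and did not pass (adjusted p = 0.3 from limma on log2(FPKM + 1)). Whether the 3 paralogs differed from each other in response was not tested.

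KLHL12, the adaptor that directs CUL3 to Dishevelled, gave 46.3, 72.3 and 54.4 CPM in shControl and 36.6, 31.0 and 58.8 CPM in shNXN. The groups overlapped and the order within a day changed, with shNXN at 79.1%, 42.8% and 108% of shControl on days 7, 9 and 11. The log2 fold change was -0.45 with a standard error of 0.29 (95% interval -1.12 to 0.22, adjusted p = 0.29 from edgeR). The value depended on single libraries, from -0.24 without the shControl library of day 9 and -0.27 without the shNXN library of day 9 to -0.77 without the shNXN library of day 11. The last fit was the only one of the 6 in which it passed (adjusted p = 0.0486 from edgeR, 0.264 to 0.617 in the others). That fit called 3706 of 14383 features, the fit without the shControl library of day 9 called 248, and the rest called 0. Its coefficient of variation was 23.1% in shControl and 34.9% in shNXN, above the 4.59% to 15.2% of the other 6 genes.

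FLII gave 295, 335 and 292 CPM in shControl and 422, 523 and 403 CPM in shNXN. The groups were well apart, and shNXN stood at 143%, 156% and 138% of shControl on days 7, 9 and 11. The log2 fold change was 0.55 with a standard error of 0.15 (95% interval 0.21 to 0.89, adjusted p = 0.0704 from edgeR, 0.0245 with the replicate block), and of the fits without the block that left out 1 library it passed only in the one without the shNXN library of day 11 (adjusted p = 0.0268 from edgeR, 0.0997 to 0.235 in the others). In that fit 3706 of 14383 features passed, against 0 to 248 in the others. LLGL1, a cell polarity gene whose end overlaps FLII on the other strand, was at 0.34 on the log2 fold change scale (adjusted p = 0.178, edgeR).

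MYD88 gave 23.1, 28.5 and 26.2 CPM in shControl and 24.2, 27.2 and 27.9 CPM in shNXN. The groups lay within the same range, and the log2 fold change was 0.03 with a 95% interval from -0.37 to 0.42 (adjusted p = 0.921 from edgeR). The interval leaves room for changes as large as the one estimated for DVL1.

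**Figure D2:**
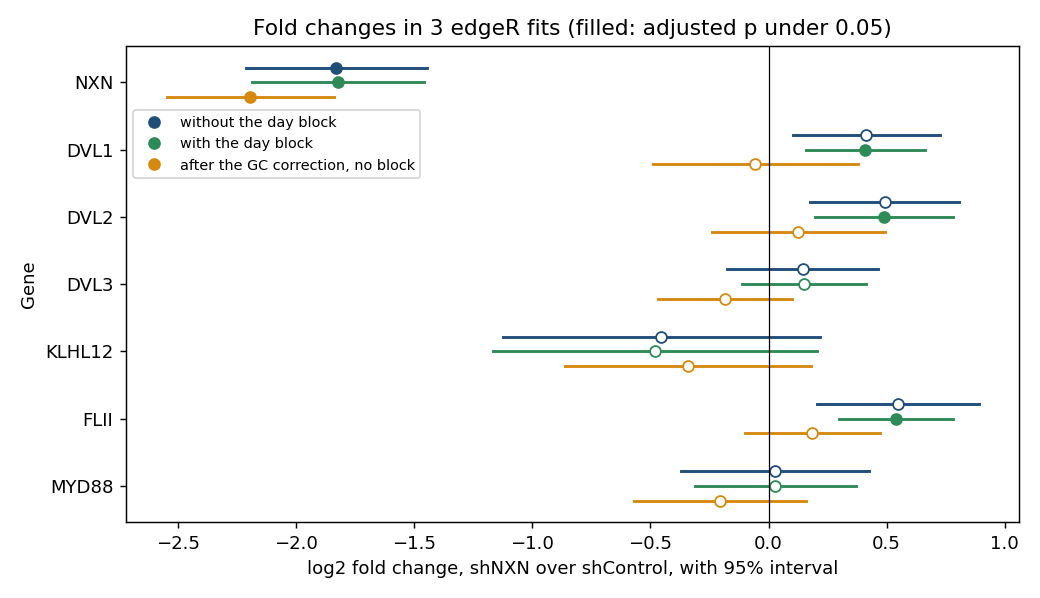
Log2 fold change of shNXN over shControl for the 7 genes with its 95% interval, in edgeR fits without the day block, with it, and after a correction for transcript GC content. Filled points have an adjusted p under 0.05. NXN is filled in the 3 fits, and DVL1, DVL2 and FLII are filled with the block only.

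GC content moved with these differences. The features with a known GC content were split by it into 5 bins of 2548. In the bin with the highest GC content, 58.4% to 74.7%, the median log2 fold change was 0.36 and 94.2% of the features were above 0. In the lowest, 30.2% to 40.8%, the median was -1.08 and 3.96% were above 0. DVL1, DVL2 and FLII belonged to the highest bin, whose quartiles were 0.25 and 0.49. DVL1 at 0.41 lay inside these quartiles, DVL2 at 0.49 lay at the upper one, and FLII at 0.55 ranked 449th from the top of 2548. NXN was in the same bin and had the lowest log2 fold change of its 2548 features. DVL3 and MYD88, in the next bin, lay below its median of 0.31 and below its lower quartile of 0.17. Spearman's rho between GC content and log2 fold change was 0.79 across the 12740 features with a known GC content, which share the same 6 libraries and are not independent.

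After each library's trend over GC content was removed, the log2 fold change was -0.06 for DVL1 (adjusted p = 0.934 from edgeR), 0.13 for DVL2 (0.778) and 0.18 for FLII (0.518). It was -0.19 for DVL3 and -0.21 for MYD88, so DVL1, DVL3 and MYD88 changed direction. NXN was at -2.19 (adjusted p = 0.00962 from edgeR) and KLHL12 at -0.34. Since the correction takes out whatever in the groups tracks GC content, a difference that arose in the cells and one that arose in the libraries cannot be told apart here.

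**Figure D3:**
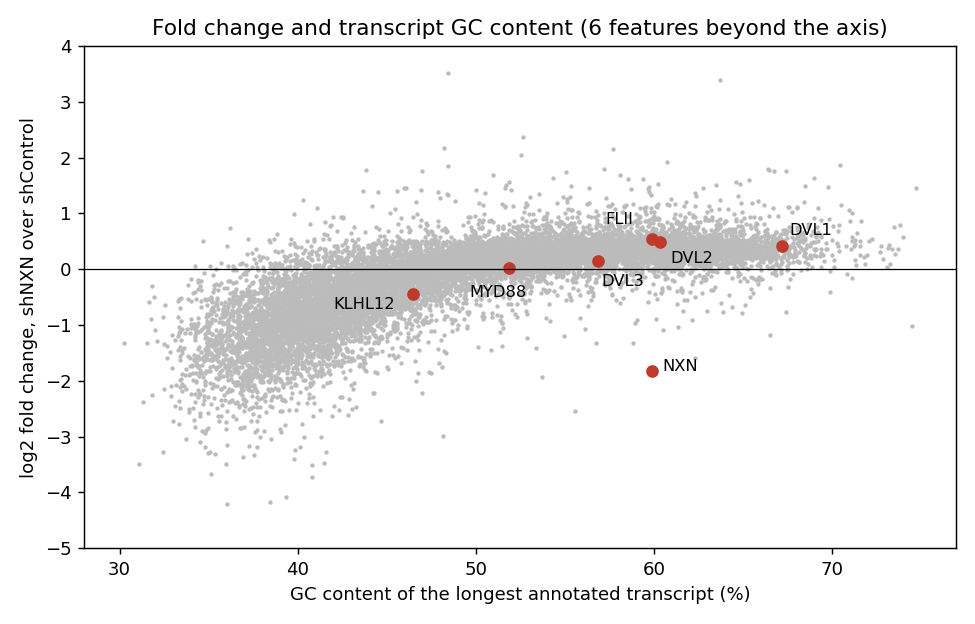
Log2 fold change of shNXN over shControl against the GC content of the longest annotated transcript, for the tested features with a known GC content (grey) and the 7 genes (red). DVL1, DVL2 and FLII sit within the cloud at GC contents near 60% and above, and NXN sits well below it.

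None of the 7 genes passed the test for a difference between days. In the fit with group and day, 0 of 14071 features passed, a share of 0%, although 3006 had an unadjusted p under 0.05 (edgeR's quasi-likelihood test). The adjusted p of the 7 genes for day lay between 0.308 for FLII and 0.731 for DVL2. In CPM, DVL1, DVL2, DVL3 and FLII were higher in shNXN on each of the 3 days, and NXN was lower on each. KLHL12 and MYD88 changed direction between days in CPM, while in FPKM MYD88 was higher in shNXN on each day.

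**Figure D4:**
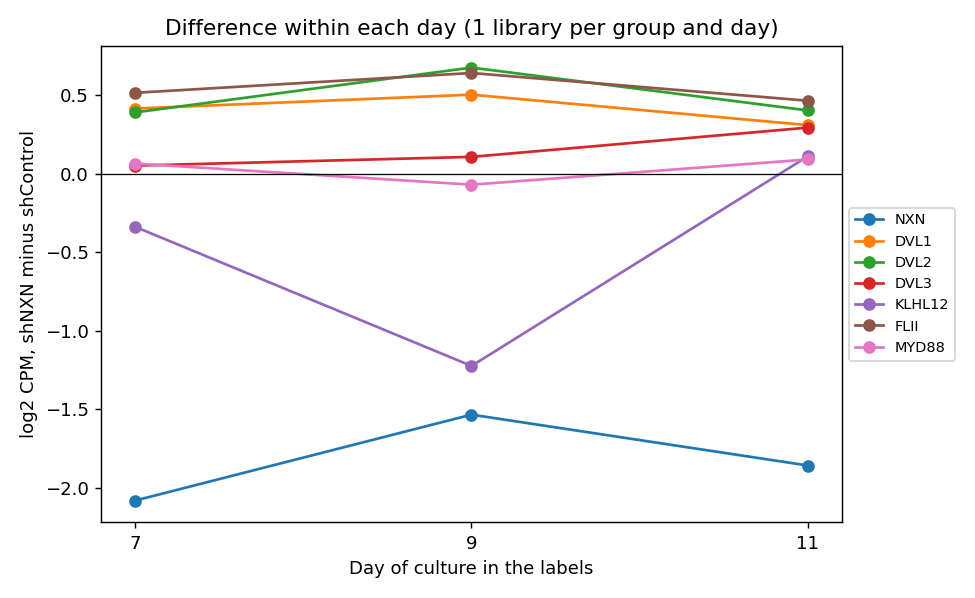
Difference in log2 CPM between shNXN and shControl on days 7, 9 and 11, with 1 library per group and day and therefore no error. NXN stays between -2.08 and -1.53, FLII, DVL1, DVL2 and DVL3 stay above 0, and KLHL12 moves from -0.34 and -1.22 to 0.11.

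Levels were compared between genes on the FPKM scale. In shControl FLII was the most abundant with 111 ± 10.7 FPKM (SD, n = 3), followed by NXN with 59.6 ± 8.84, DVL1 with 52.5 ± 3.28, DVL3 with 40.7 ± 3.05, DVL2 with 39.7 ± 2.27, KLHL12 with 21.7 ± 7.51 and MYD88 with 10.3 ± 1.01. NXN and DVL1 overlapped in their ranges, as did DVL3 and DVL2, so the order within these pairs was not larger than the spread. In shNXN the order was FLII with 176 ± 17.4 FPKM, DVL1 with 70.3 ± 9.57, DVL2 with 56.3 ± 5.10, DVL3 with 48.6 ± 3.34, NXN with 17.75 ± 3.54, KLHL12 with 16.1 ± 3.57 and MYD88 with 11.7 ± 0.94. NXN fell from the second place to a level that overlapped that of KLHL12. DVL1 and DVL2 also overlapped in their ranges there, as did KLHL12 and MYD88. Both orders were the same when CPM per kilobase of the longest transcript was used.

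The 3 Dishevelled genes together gave 129 to 138 FPKM in shControl and 159 to 194 FPKM in shNXN. FPKM stood higher in shNXN over all tested features too, with a median log2 fold change of 0.14 on log2(FPKM + 1). DVL1 made up 39.5 ± 1.37% of the Dishevelled sum in shControl and 40.0 ± 1.41% in shNXN, DVL2 29.9 ± 1.48% and 32.2 ± 0.83%, and DVL3 30.7 ± 2.55% and 27.8 ± 1.11%. The ranges of each share overlapped between the groups. Within days, the DVL2 share was higher in shNXN each time, at 31.4% against 28.7% on day 7, 32.0% against 29.3% on day 9 and 33.1% against 31.5% on day 11, with no test, while the shares of DVL1 and DVL3 did not move the same way on each day. The Dishevelled sum was 1.86 to 2.62 times the FPKM of NXN in shControl and 9.05 to 11.1 times in shNXN, a ratio that holds the knockdown itself. FLII stood at 9.47 to 12.5 times MYD88 in shControl and 14.1 to 16.2 times in shNXN.

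**Figure D5:**
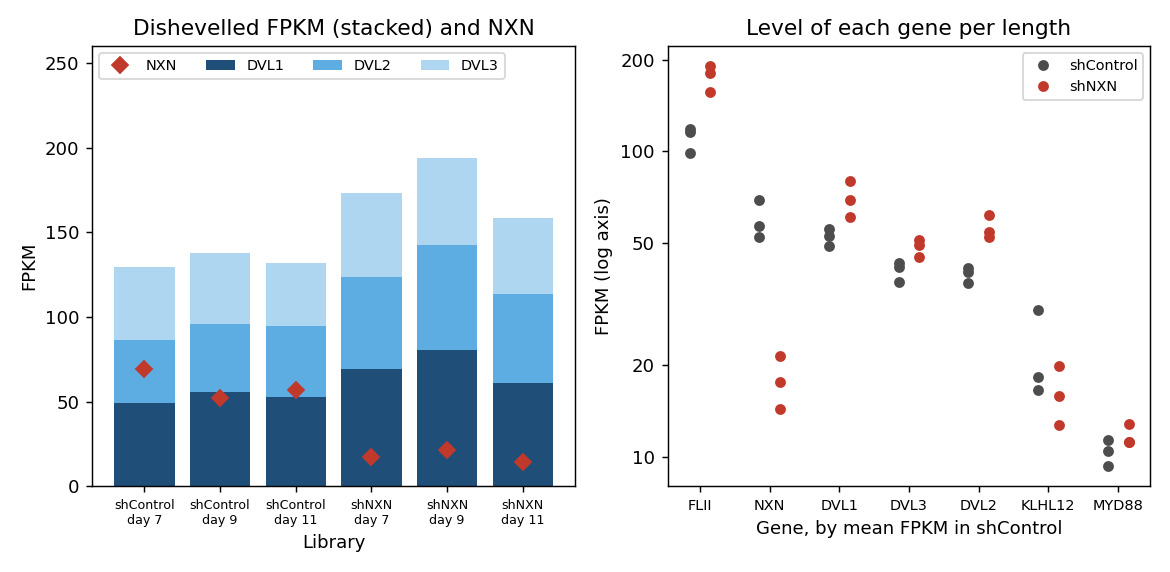
Left, FPKM of DVL1, DVL2 and DVL3 stacked for each library, with NXN as diamonds, and right, FPKM of each of the 7 genes on a log axis with 1 point per library. The Dishevelled sum is 129 to 138 in shControl and 159 to 194 in shNXN, and FLII is the highest and MYD88 the lowest gene by mean in both groups.

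Across the 6 libraries DVL1 and FLII followed each other closely, with a Pearson r of 0.996 on log2(CPM + 1), and among the 10648 named genes at 5 CPM or more FLII was the second most like DVL1. This is a description over 6 libraries that fall into the groups compared. The genes most like NXN were ETAA1, IFT25 and OCLN, each with an r of 0.995, and ETAA1 (log2 fold change -1.78, adjusted p = 0.0393 from edgeR) and OCLN, a tight junction protein (-0.79, adjusted p = 0.0452), passed the test. Genes picked for following NXN differ between the groups by that choice, so these p-values add nothing to the likeness. ETAA1 and OCLN, at 33.7% and 39.9% GC, belong to the lowest GC bin, whose median log2 fold change was -1.08. ARHGAP1 was the most like DVL1, VRK3 the most like DVL2, ZNF444 the most like DVL3, IFT52 the most like KLHL12, NME2 the most like FLII and TRMT12 the most like MYD88, with r from 0.991 for TRMT12 to 0.999 for ZNF444.

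Genes that work beside the 7 were taken from 8 lists. Without the block, 3.39% of all features passed. Of the lists, 1 of 11 tested genes among other reported partners of NXN passed, SEC63. In the other lists it was 0 of 13, 26, 17, 18, 10, 24 and 19 tested genes. SEC63, a translocation protein of the endoplasmic reticulum that has been reported to bind NXN, was at 187 ± 16.6 CPM in shControl and 79.2 ± 21.7 CPM in shNXN (SD, n = 3). It fell by 1.24 on the log2 scale (adjusted p = 0.0452, edgeR), and after the GC correction it was at -0.28. The median log2 fold change over all features was 0.03. With the block, 23.3% of all features passed, 6.28% as higher, and each count with the block below is to be read against that share.

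At the receptors, 5 of 13 tested Wnt receptors passed with the block (23.3% over all features), 2 higher and 3 lower, with a list median of 0.15. The co-receptor LRP6 gave 75.2 ± 3.92 CPM in shControl and 40.9 ± 10.8 in shNXN (adjusted p = 0.0305 with the replicate block), and its paralog LRP5 gave 413 ± 36.3 and 550 ± 22.5 CPM (0.0385, edgeR). LRP6 and LRP5 moved in opposite directions, and after the GC correction their log2 fold changes were -0.00077 and 0.03. The receptor FZD6 was lower with the block as well (log2 fold change -0.98, adjusted p = 0.0212 from edgeR), and after the GC correction it was at 0.14 (0.715).

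Of 26 tested Dishevelled regulators, 5 passed with the block, a share below the 23.3% of all features, 2 higher and 3 lower (list median 0.20). NKD1, which binds Dishevelled and restrains it, gave 2.79 ± 0.50 and 6.02 ± 1.44 CPM (adjusted p = 0.0282 with the replicate block, edgeR), and CCDC88A, a regulator of G proteins, gave 43.9 ± 14.1 and 14.0 ± 7.39 CPM (0.0142). With the block and the GC correction they were at 0.87 and -0.53 on the log2 scale, and neither passed (adjusted p = 0.107 and 0.111, edgeR). Of the enzymes that add or remove ubiquitin on Dishevelled together with the CUL3-KLHL12 ligase, 8 of 17 passed with the block (23.3% over all features), 1 higher and 7 lower (list median -0.18). The median GC content of this list was 42.4%, and after the GC correction its median log2 fold change was -0.07. With the block and that correction 1 of its 17 genes passed, and 130 of 14071 over all features. The ubiquitin ligase NEDD4 was at -1.43 and the deubiquitinase USP14 at -1.68 on the log2 scale in the fit with the replicate block (adjusted p = 0.0178 and 0.0184, edgeR). Downstream, 1 of 18 members of the beta-catenin destruction complex and its targets passed with the block, also below the 23.3% of all features. It was APC, the scaffold of that complex, at 52.3 ± 3.52 and 18.1 ± 12.6 CPM (adjusted p = 0.0361, edgeR). With the block and the GC correction APC was at -0.75 on the log2 scale and did not pass (adjusted p = 0.19, edgeR). For GLUL, a beta-catenin target in liver, the log2 fold change was 0.19 (adjusted p = 0.635, edgeR).

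Around FLII, 0 of 10 tested gelsolin family genes and FLII partners passed, with the block (23.3% over all features) or without it (3.39%), and the list median was 0.23, while the log2 fold change of ACTB was 0.43 (adjusted p = 0.315, edgeR). Around MYD88, 12 of 24 tested genes of Toll-like receptor signaling passed with the block (23.3% over all features), 5 higher and 7 lower (list median -0.40). IRAK1, the kinase that MYD88 recruits, gave 187 ± 6.03 and 276 ± 37.6 CPM, and the kinases CHUK and MAP3K7 further along the path had log2 fold changes of -1.49 and -1.38 in the fit with the replicate block (adjusted p = 0.0349, 0.0154 and 0.0226 for the 3 in that order, edgeR). The median GC content of this list was 43.5%, and after the GC correction its median log2 fold change was 0.01. With the block and that correction 0 of its 24 genes passed, and 130 of 14071 over all features.

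Among thioredoxin-fold relatives of NXN, 2 of 19 passed with the block (23.3% over all features), both higher (6.28% over all features), PRDX5 (log2 fold change 0.40) and TXNL4A (0.60), with adjusted p values from edgeR of 0.0434 and 0.0481. After the GC correction PRDX5 was at 0.03 and TXNL4A at 0.44 (adjusted p = 0.95 and 0.231, edgeR). PRDX1, the most abundant gene of this list, ranged widely, at 488 ± 150 and 273 ± 152 CPM (adjusted p = 0.183 from edgeR). Of 11 tested genes among other reported partners of NXN, 3 passed with the block, close to the 23.3% of all features, all lower, SEC63 and the catalytic subunits of protein phosphatase 2A, PPP2CA and PPP2CB, with log2 fold changes of -0.63 and -0.61 (adjusted p = 0.022 and 0.0487 from edgeR). After the GC correction PPP2CA was at 0.16 and PPP2CB at -0.59 (adjusted p = 0.603 and 0.278, edgeR). PPP2R1A, the scaffold subunit of that phosphatase, was at 0.30 (adjusted p = 0.131, edgeR). With the block and the GC correction together, at most 1 gene of any list passed, and 130 of 14071 over all features.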

How the data were processed

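RNA was sequenced from 6 Hep-3B libraries. The authors deposited estimated counts per feature, with 2 decimals, and FPKM values for the same features. Aligner, counter and annotation are not given in the sources used here, and the submitters' processing notes name the mouse builds GRCm38 and mm10, although the identifiers are human. Estimated counts share reads among matching features, so paralogs and overlapping genes are uncertain.

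After rounding, the counts went into edgeR 4.0.16 under R 4.3.3 with TMM, filterByExpr, quasi-likelihood test, Benjamini-Hochberg over 14071 features, adjusted p under 0.05. CPM were TMM-scaled. The standard error was the fold change over the square root of F. Alternatives were DESeq2 1.42.0, limma 3.58.1 on log2(FPKM + 1) or log2(FPKM + 0.1), other scalings and filters, a replicate block, each library left out, and an offset from a 5 df spline of GC content of the longest GENCODE 29 transcript. The edgeR script was first tested on simulated counts. Replicate numbers follow the days, so the labels pair the libraries, and the same-day deviations from the group means correlated at 0.30, 0.31 and 0.45. No pair of libraries within a group agreed within sampling noise.

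Members and lists were chosen with earlier results of these data known. Named were the 7 genes, in each list the called genes (up to 4, and up to 2 more with the block) and the most abundant, tested neighbours, and the 3 genes most alike at 5 CPM or more. Arithmetic used Python 3.11.15, numpy 2.4.6, pandas 2.3.3 and scipy 1.17.1. The authors' other experiments were not analysed here.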

Additional observations from a re-analysis of the deposited data

Results flagged for a closer look

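KLHL12 was lower in shNXN on day 7 (log2 difference -0.34) and day 9 (-1.22) and higher on day 11 (0.11). MYD88 was higher on day 7 (0.066) and day 11 (0.091) and lower on day 9 (-0.069). Both stand here because the direction changed between days on the CPM scale. In FPKM, KLHL12 was at -0.065, -1.26 and 0.12 on days 7, 9 and 11. MYD88 was at 0.27, 0.18 and 0.099 in FPKM and kept its direction, where the median over all tested features was 0.14 on log2(FPKM + 1). With 1 library for a group on a day, the difference between days was not tested.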

How the results depend on the processing

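The count of features with an adjusted p under 0.05 was 477, and it was 3272 with the replicate block, 3311 with DESeq2, 818 without a filter, 929 when scaled by library size only, 826 by RLE, 234, 16 and 0 with limma on log2(FPKM + 1), on log2(FPKM + 0.1) and on log2(FPKM + 1) without a filter, 5 after the GC correction and 130 after the GC correction with the replicate block. Leaving out 1 library gave 0 to 3706, the highest without the shNXN library of day 11 and 248 without the shControl library of day 9. The other 4 such fits gave 0, with 2668 to 4229 features at an unadjusted p under 0.05 (edgeR). NXN kept its direction in all 17 alternatives, from -2.19 to -1.67, and missed the threshold with limma on log2(FPKM + 0.1) (-1.75), with limma without a filter (-1.70) and in 4 of the 6 fits without 1 library (-1.90 to -1.67 over the 6). DESeq2 called DVL1, DVL2 and FLII (adjusted p = 0.0383, 0.00799 and 0.0151). After the GC correction, alone or with the replicate block, DVL1 was at -0.055 and -0.028, DVL3 at -0.19 and -0.18, and MYD88 at -0.21 and -0.20. MYD88 ran from -0.02 to 0.12 in the fits without 1 library, and was at -0.021 without the shControl library of day 7 and -0.014 without the shNXN library of day 11. Features that differed between days numbered 302 without a filter, 25 after the GC correction and 0 to 1595 without 1 library. The causes were not tested. The 95% interval of MYD88, from -0.37 to 0.42, gives the changes that these libraries leave possible for that gene only. Larger estimates also went uncalled without the block, FLII at 0.55 and DVL2 at 0.49 (adjusted p = 0.0704 and 0.0735, edgeR). The interval of KLHL12 reached from -1.12 to 0.22.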
